A study of Drosophila melanogaster with 14 samples.

Results

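The Toll and Imd pathways are the NF-kappaB signalling routes of innate immunity in Drosophila melanogaster. Their component genes were followed here across all 14 libraries of an RNA-seq study of lola mutants. The set held 41 genes, taken from a list of known recognition proteins, proteases and signalling proteins and matched by FlyBase symbol to the identifiers of the count files, and all 41 were found among the 17558 identifiers. By role they made up 8 genes of the Toll ligand and its protease cascade, 5 recognition genes of the Toll branch, 8 genes of the Toll receptor and its cytoplasmic transducers, 4 receptors of the Imd branch, 6 amidase PGRP genes and 10 genes of the intracellular Imd pathway.

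In the Toll pathway, circulating recognition proteins of the GNBP and PGRP families bind microbial wall components and start a cascade of serine proteases. The cascade ends with SPE, which cleaves the cytokine Spatzle (spz) so that it can bind the receptor Toll (Tl), and adaptors and kinases then free the NF-kappaB factors dl and Dif from their inhibitor cact. In the Imd pathway, peptidoglycan is bound by PGRP-LC at the membrane or by PGRP-LE, and the adaptor imd, the caspase Dredd and the kinases Tak1 and IKKbeta lead to cleavage of the NF-kappaB factor Rel. Both pathways switch on antimicrobial peptide genes in fat body and hemocytes, and in the early embryo the same Toll receptor, supplied by the mother, sets up the dorsal-ventral axis.

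lola (longitudinals lacking) encodes many isoforms of a BTB zinc finger transcription factor with known roles in axon guidance. Polyadenylated RNA of whole animals was sequenced in 3 sets of libraries, each with its own controls. The lola-F set held 3 libraries of lola-F stop / Df(2R)ED2076 mutants and 3 of Wild type / Df(2R)ED2076 controls, embryos 15 h after fertilization made from pools of 100 animals. The lola-null set held 2 libraries of lola E76 / Df(2R)ED2076 mutants, described by the labels as null, and 2 of Wild type / Df(2R)ED2076 controls, also labelled as embryos of 15 h, with no pool size given. The lola-O set held 2 libraries of lola-O / Df(2R)ED2076 mutants and 2 of Wild type / Df(2R)ED2076 controls, pools of 10 adults frozen within 10 h after eclosion. The deficiency was thus shared by every animal, controls included, and none of the labels names an infection or another immune challenge. Mutant embryos of both embryo sets were sorted by hand for mCherry. Because RNA came from whole animals, fewer cells of a type and less RNA per cell cannot be told apart in any value below.

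Libraries held 3326811 to 22629694 gene counts (lola-F set), 4178333 to 7098985 (lola-null set) and 10078884 to 15960133 (lola-O set). The level of lola, summed over all isoforms, was 151, 154 and 236 CPM (counts scaled to a common library size) in lola-F mutants, against 274, 259 and 361 CPM in their controls. In the lola-null set it was 1044 CPM in the library labelled null mutant 1 and 369 CPM in mutant 2, against 1016 and 1414 CPM in the controls, so that the library labelled null mutant 1 lay within the range of the controls for lola and its label is in doubt. In the cuticle markers and in spz and Sp7, given below, the same library lay with mutant 2 and apart from the controls. In lola-O adults it was 113 and 109.5 CPM, against 125 and 97.0 CPM in controls. On the BDGP6.54 annotation the 41 genes lay on all major arms, 9 of them on 2R, the arm of lola and the deficiency, and the nearest of these, Myd88, started more than 1173 kb from lola. Several members share sequence or exons with other genes: all exon bases of MP1 are overlapped on the opposite strand by Vps24, 44.4% of those of PGRP-LF by UGP and 36.2% of those of Hayan by an antisense RNA. How strand was set in the counting is not stated, so reads of these genes and of their partners cannot be told apart. PGRP-SC1a and PGRP-SC1b are near-identical copies, and reads that fit both were not counted.

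Embryos with a stop in lola-F were compared with controls of the same age. Among the Toll and Imd genes, Dif, an NF-kappaB factor that serves the Toll pathway in larvae and adults, fell, and no other member passed the test. Of 39 members tested, edgeR called 1 lower and 0 higher (2.56% in all) at an adjusted p under 0.05, where 3.73% of the 10191 genes tested were called lower and 3.33% higher, 7.06% in either direction. An unadjusted p under 0.05 was found for 6 members (15.4%), and for 3172 of all 10191 genes tested. DESeq2 called 2 members lower (Dif and SPE) and 0 higher, where it called 19% of all genes. PGRP-SB2 and PGRP-SC1b had too few counts to be tested. The median log2 fold change of the members was −0.05, against 0.02 over all genes tested.

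Dif (chromosome 2L, 17413248 to 17433161, minus strand) was at 84.2, 91.7 and 67.0 CPM in lola-F mutants, against 135, 117 and 157 CPM in lola-F controls. Every mutant library was below every control library, and the log2 fold change was −0.75 ± 0.18 (SE; edgeR quasi-likelihood adjusted p = 0.0480). The call ended when any 1 of the 6 libraries was left out (adjusted p = 0.0601 to 0.138). After a correction for exonic length, the log2 fold change was −0.27 (adjusted p = 0.164), and over all genes Spearman's rho between log2 fold change and exonic length was −0.50, a description across genes. Beside this set's result, fat body markers summed to 1473, 1561 and 1155 CPM in mutants, against 2864, 2453 and 3996 CPM in controls, with 2 of 4 tested markers called lower (apolpp and Apoltp). Hemocyte markers summed to 3722, 3610 and 3001 CPM in mutants, against 4258, 4660 and 5910 CPM in controls, with 1 of 11 called lower (lz), and midgut markers to 8703, 8056 and 11240 CPM in mutants, against 4727, 5822 and 6226 CPM in controls, with 7 of 14 called higher. Over all genes tested in this set 3.33% were called higher and 3.73% lower. The part of these tissues in the level of Dif was not tested.

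**Figure D1:**
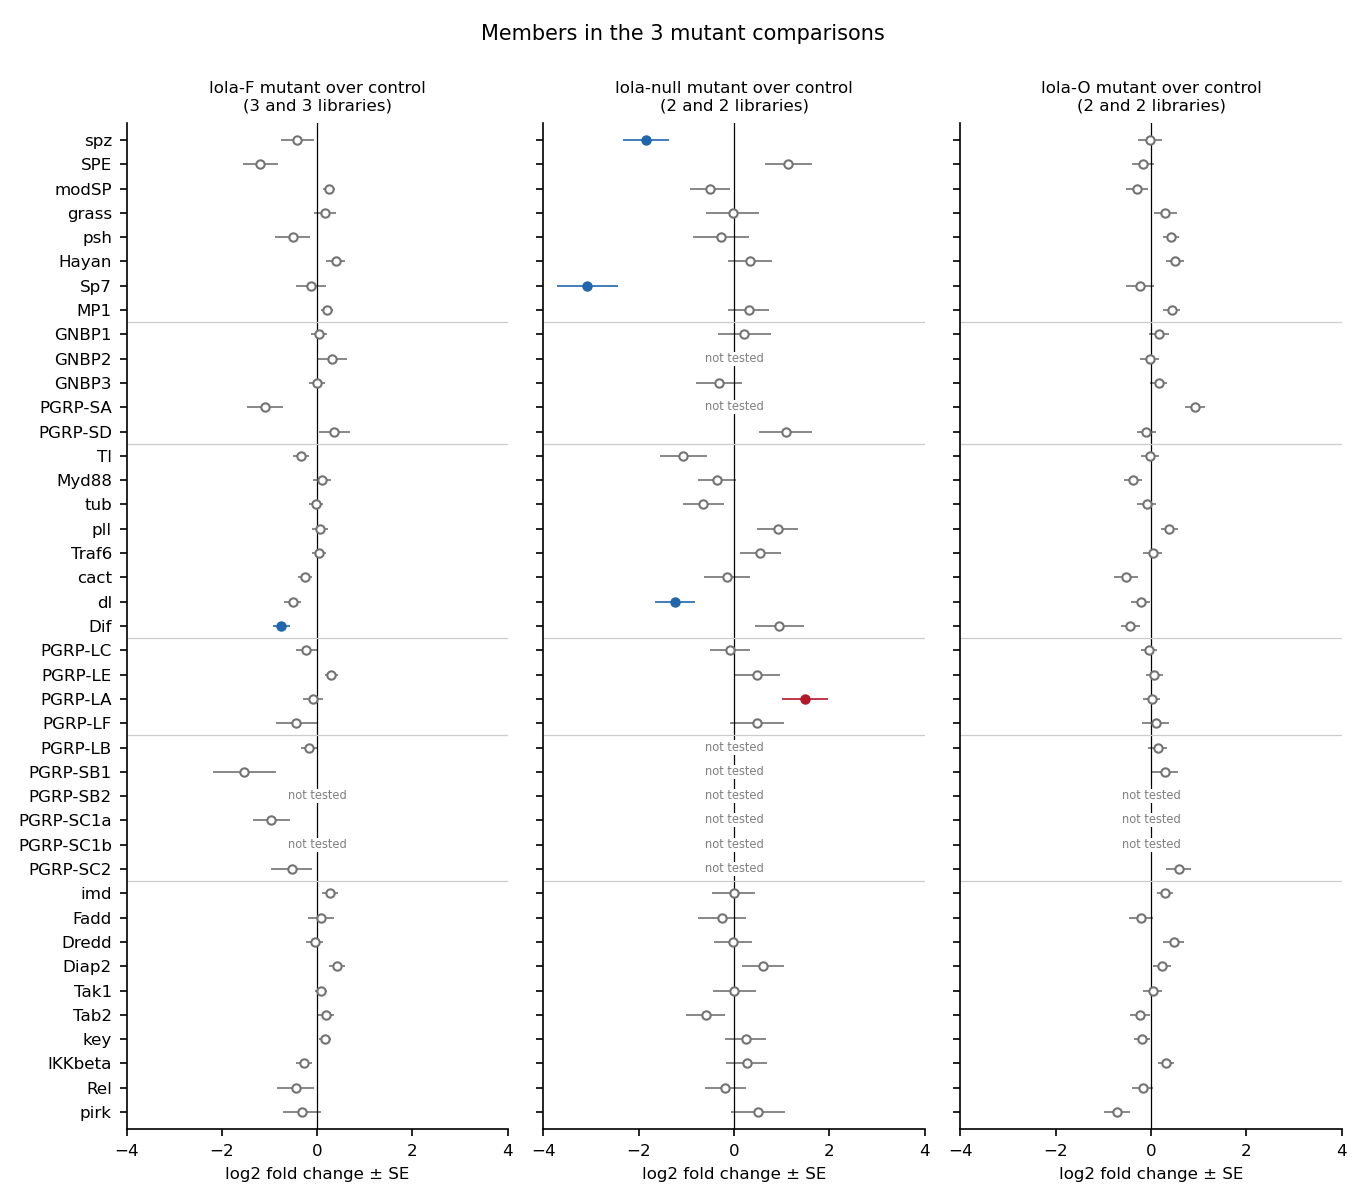
Log2 fold change of each member in the 3 mutant comparisons (x axis, mutant over control of the same set, bars are standard errors), with members in rows grouped by role from the ligand and protease cascade at the top to the intracellular Imd pathway at the bottom. Blue points passed as lower, red points as higher and open points did not pass: Dif (−0.75) passed in lola-F embryos, spz (−1.85), Sp7 (−3.08), dl (−1.24) and PGRP-LA (1.49) passed in lola-null embryos, and no point passed in lola-O adults.

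A further 5 members had an unadjusted p under 0.05 in the lola-F set without passing the adjusted test, and they are named here after their values were seen. SPE, the protease that activates spz, was at 3.41, 3.26 and 6.75 CPM in mutants, against 12.4, 12.01 and 7.06 CPM in controls, with a log2 fold change of −1.19 ± 0.37 (adjusted p = 0.0797). The recognition gene PGRP-SA, whose protein binds Lys-type peptidoglycan, was at 2.42, 1.79 and 4.39 CPM in mutants, against 7.89, 6.21 and 4.91 CPM in controls, with −1.10 ± 0.38 (adjusted p = 0.105). Neither gene overlapped between the groups, but in both mutant 3 lay close to control 3, and without mutant 3 SPE was called at −1.61 (adjusted p = 0.0450) and PGRP-SA at −1.53 (adjusted p = 0.0482). dl, the NF-kappaB factor of dorsal-ventral patterning and the neighbour of Dif on 2L (17436830 to 17450364), was at 130.4, 127 and 97.6 CPM in mutants, against 161, 145 and 202 CPM in controls (−0.52 ± 0.18, adjusted p = 0.108), and its sign turned to 0.05 after the length correction. The amidase gene PGRP-SC1a had a log2 fold change of −0.96 ± 0.39 (adjusted p = 0.144), and Diap2, a ubiquitin ligase of the Imd pathway, had 0.42 ± 0.16 (adjusted p = 0.133).

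Control 3 of the lola-F set stood apart from the other controls in several Imd genes. Of 40 members that averaged 1 CPM or more in these controls, 6 were more than 2-fold above both other controls in control 3 (Rel, pirk, PGRP-LF, PGRP-SB1, PGRP-SC1a and PGRP-SC1b) and 1, the amidase gene PGRP-SC2, was below 0.5 times both. No Toll cascade, recognition or transducer gene was among them. Over all 10174 genes at that level 1.87% were above and 4.75% below by the same measure, and below were also 3 of 7 fat body markers, 3 of 7 maternal and germline markers and 3 of 6 cuticle markers. The part of tissue or stage in this library was not tested. Rel was at 229, 218 and 323 CPM in mutants, against 226, 236 and 592 CPM in controls 1, 2 and 3. pirk, an inhibitor of Imd signalling, was at 19.5, 17.6 and 15.1 CPM in mutants, against 12.6, 13.5 and 37.5 CPM in controls. Controls 1 and 2 lay close to the mutants for both genes, and control 3 alone was high. PGRP-LF, a receptor that blocks PGRP-LC signalling, was at 31.4, 29.3 and 32.4 CPM in mutants, against 28.7, 21.2 and 75.3 CPM in controls, and the amidase gene PGRP-SB1 was at 1.53, 0.489 and 1.31 CPM in mutants, against 1.05, 1.93 and 6.12 CPM in controls. These genes were picked for this pattern, so their values are a description.

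Some antimicrobial peptide genes were high in the same library. AttB, an Attacin gene, was at 2.25, 1.96 and 1.47 CPM in mutants, against 5.26, 4.17 and 21.5 CPM in controls 1, 2 and 3, and DptB, a Diptericin gene, at 0, 0 and 0.157 CPM in mutants, against 0, 0.102 and 4.995 CPM in controls. Genes of the Bomanin and Daisho families, peptides known as Toll targets, took the other direction in control 3. BomS1 was at 11.9, 12.3 and 28.3 CPM in mutants, against 96.2, 88.0 and 32.2 CPM in controls, and BomBc3 at 1.98, 1.88 and 7.22 CPM in mutants, against 61.3, 69.5 and 0.775 CPM in controls. Of 20 effector peptide genes at that level, 4 (AttA, AttB, DptB and Mtk) were more than 2-fold above both other controls in control 3 and 11 were below 0.5 times both. Adult stage markers were near 0 in every library of the set, with sums of 1.20 to 2.89 CPM over 8 genes. Without control 3 edgeR called no member in the lola-F set, while 504 of 10404 genes were called higher and 646 lower, with 3330 at an unadjusted p under 0.05.

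**Figure D2:**
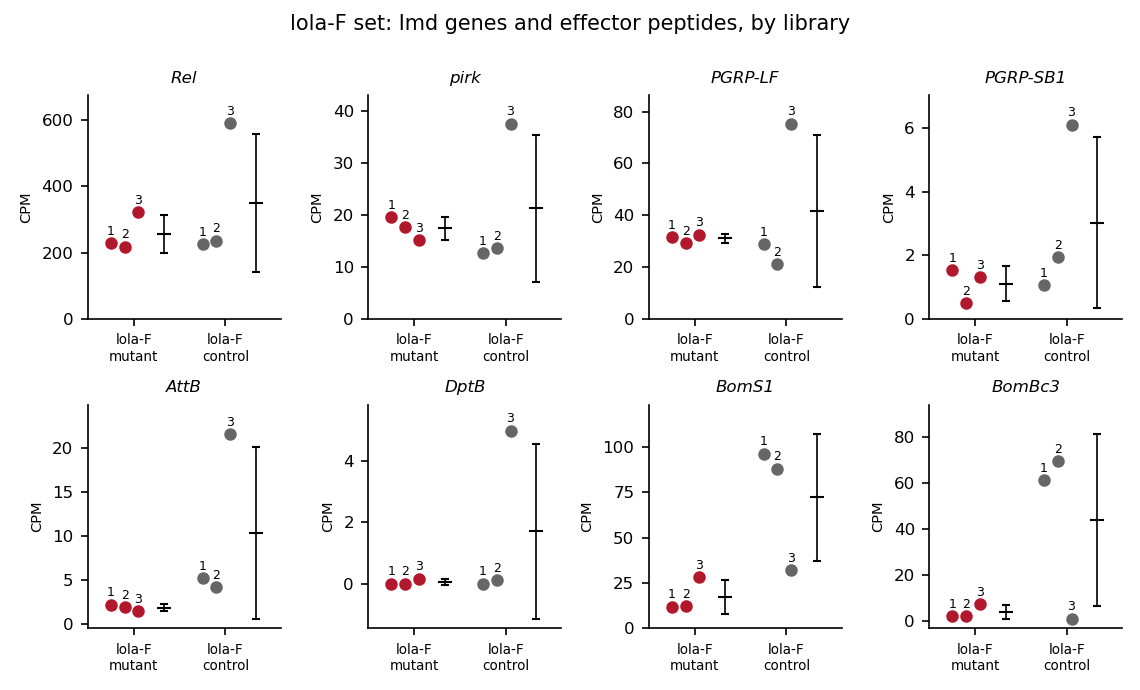
CPM (y axes) of 4 Imd genes and 4 effector peptide genes in each library of the lola-F set, mutants in red left of controls in grey, with replicate numbers beside the points and mean ± SD (n = 3) as bars. Control 3 was the highest control in the top row and for AttB and DptB, with Rel at 592 CPM against 226 and 236 CPM in the other controls, and the lowest control for BomS1 and BomBc3.

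Other genes of the pathways were read from a wider list of 45. In lola-F embryos 40 of these were tested, 3 were called lower and 0 higher. Over all 10191 genes tested 3.73% were called lower and 3.33% higher. The median log2 fold change of the 40 genes was −0.22, against 0.02 over all genes tested. Tollo, a Toll family receptor, was at 7.54, 8.72 and 8.16 CPM in mutants, against 19.5, 13.1 and 19.1 CPM in controls (−1.07 ± 0.20, adjusted p = 0.0353). Toll-6, a Toll family receptor with neuronal roles, was at 16.2, 16.1 and 12.4 CPM in mutants, against 29.5, 25.3 and 53.8 CPM in controls (−1.29 ± 0.30, adjusted p = 0.0455). Spn28Dc, a serpin that restrains melanization, was at 23.7, 25.9 and 29.5 CPM in mutants, against 40.2, 40.6 and 45.7 CPM in controls (−0.68 ± 0.14, adjusted p = 0.0417). For each of the 3 genes the groups did not overlap. Of 37 effector peptide genes 19 were tested, and AttC alone was called, at 0, 0.163 and 0 CPM in mutants, against 1.58, 1.63 and 3.01 CPM in controls (adjusted p = 0.0242). With 2 counts in all mutants together, against 57 in controls, the ratio was 48.0-fold lower (95% exact interval 12.7 to 406, counting error only). Of these 19 genes 18 had a negative log2 fold change, with a median of −1.28, where 4875 of all 10191 genes tested were negative. The calls of Tollo, Toll-6, Spn28Dc and AttC were lost without lola-F mutant 1, mutant 2, control 1 or control 2. They were also lost with the replicate block, and no gene of any kind was called in these settings.

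The lola-null comparison addressed the loss of lola as a whole. In lola-null embryos the Toll ligand spz, the protease gene Sp7 and the NF-kappaB factor dl fell, and the receptor gene PGRP-LA rose. Of 33 members tested, 1 was called higher and 3 lower (12.1% in all), where 7.42% of the 9288 genes tested were called higher and 9.49% lower, 16.9% in either direction. The members' share was thus not above that of all genes. The 8 members with too few counts to be tested included all 6 amidase genes, GNBP2 and PGRP-SA, and the median log2 fold change of those tested was −0.01, against 0.09 over all genes tested.

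spz (3R, 27064990 to 27070070, minus strand), the Toll ligand precursor, was at 6.39 and 7.19 CPM in lola-null mutants, against 18.3 and 30.6 CPM in lola-null controls. The log2 fold change was −1.85 ± 0.49 (adjusted p = 0.00662), and without control 2 the call was lost (adjusted p = 0.388). Sp7 (3R, 7759786 to 7763947, plus strand), a protease of the melanization cascade, was at 0.983 and 0.770 CPM in mutants, against 5.87 and 9.43 CPM in controls (−3.08 ± 0.64, adjusted p = 0.000740, and 0.0781 without control 2). dl was at 20.8 and 16.7 CPM in mutants, against 41.1 and 47.8 CPM in controls (−1.24 ± 0.42, adjusted p = 0.0395). The groups did not overlap for any of the 3 genes. The call of dl was lost without control 1 or control 2 (adjusted p = 0.275 and 0.532), with upper quartile scaling (0.0768) and with the replicate block (0.135), and after the length correction its log2 fold change was −0.39 (adjusted p = 0.617).

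PGRP-LA (3L, 9334332 to 9338336, plus strand), a member of the PGRP-LA, PGRP-LC and PGRP-LF gene cluster that takes part in Imd signalling in barrier tissues, was at 15.4 and 18.7 CPM in lola-null mutants, against 5.65 and 6.42 CPM in lola-null controls. The log2 fold change was 1.49 ± 0.49 (adjusted p = 0.0313). Both mutant libraries were above both control libraries, and the call was lost without control 1 or control 2 (adjusted p = 0.414 and 0.401). Its neighbours on 3L did not pass: PGRP-LC was at 29.2 and 52.4 CPM in mutants, against 47.8 and 38.4 CPM in controls, and PGRP-LF at 4.59 and 7.45 CPM in mutants, against 6.31 and 2.46 CPM in controls. Both neighbours overlapped between the groups.

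The 2 lola-null mutant libraries differed from each other in several members. Tl, the receptor, was at 468 and 218 CPM in mutants 1 and 2, against 549 and 885 CPM in controls (−1.06 ± 0.50, adjusted p = 0.162). Without the library labelled null mutant 1 its log2 fold change was −1.82. pll, the kinase of the Toll pathway and a fly IRAK, was at 198 and 148 CPM in mutants, against 85.7 and 98.4 CPM in controls (0.91 ± 0.43, adjusted p = 0.164). Without mutant 2 its log2 fold change was 1.13. SPE was at 12.6 and 33.6 CPM in mutants, against 10.2 and 10.5 CPM in controls (1.14 ± 0.49, adjusted p = 0.123). Without the library labelled null mutant 1 its log2 fold change was 1.59. Each value with a library left out rests on 1 mutant library, so the spread between mutants does not enter it. In none of these 3 genes did the groups overlap. Groups of 2 libraries were also apart in members with an unadjusted p over 0.05, such as modSP, Myd88 and Traf6. Tl, pll and SPE had an unadjusted p under 0.05 and are named after their values were seen. Without the library labelled null mutant 1, whose label is in doubt, spz, Sp7, dl and PGRP-LA kept their direction. Only 1 mutant library was left in that fit. Of the 10 intracellular Imd genes none was called, with log2 fold changes of −0.60 (Tab2) to 0.61 (Diap2).

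Stage and cell type markers differed within the lola-null set. Markers of the late embryonic cuticle summed to 1163 and 1349 CPM in mutants, against 5.002 and 3.14 CPM in controls, and 8 of 8 were called higher. Midgut markers summed to 68.8 and 72.9 CPM in mutants, against 29.8 and 21.6 CPM in controls, with 3 of 5 tested called higher, and hemocyte markers to 1966 and 2022 CPM in mutants, against 1639 and 1353 CPM in controls, with 1 of 8 called lower (srp). Fat body markers summed to 1735 and 1928 CPM in mutants, against 3179 and 2530 CPM in controls, with 0 of 5 tested called, and maternal and germline markers to 808 and 584 CPM in mutants, against 583 and 940 CPM in controls, with 2 of 8 called lower. A difference in embryonic age and the genotype cannot be told apart in this set. Among the 45 other pathway genes 39 were tested, with 1 called higher, 7 lower and a median log2 fold change of −0.07. For these genes and the markers above, the shares over all 9288 genes tested were 7.42% higher and 9.49% lower, with a median of 0.09. akirin, a nuclear factor needed for Rel targets, was at 59.8 and 100.1 CPM in mutants, against 321 and 381 CPM in controls (−2.14 ± 0.48, adjusted p = 0.00171). Tollo was at 29.5 and 19.3 CPM in mutants, against 101 and 77.1 CPM in controls (−1.86 ± 0.42, adjusted p = 0.00194), and Toll-6 at 16.1 and 12.3 CPM in mutants, against 45.0 and 48.9 CPM in controls (−1.72 ± 0.43, adjusted p = 0.00457). These 3 genes did not overlap between the groups. Only 2 effector peptide genes had enough counts to be tested and neither was called.

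**Figure D3:**
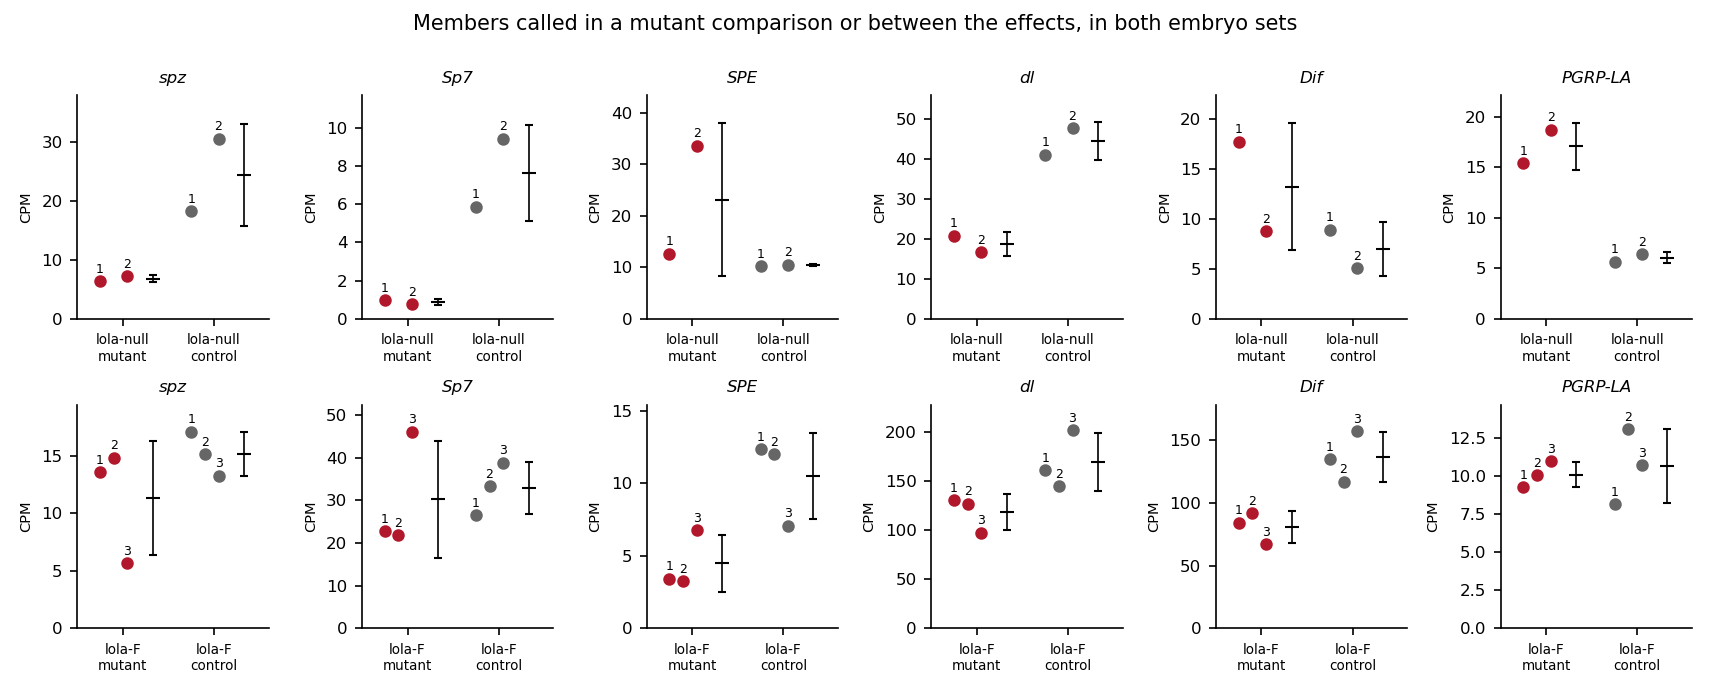
CPM (y axes) of 6 members in each library of the lola-null set (top row) and the lola-F set (bottom row), mutants in red left of controls in grey, with replicate numbers beside the points and mean ± SD as bars (n = 2 per group in the top row, n = 3 in the bottom row). In lola-null embryos spz, Sp7 and dl were lower in both mutants and PGRP-LA higher, and in lola-F embryos Dif was lower in all 3 mutants.

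The effects of both embryo mutations were set against each other by the interaction of genotype and set over 10 libraries. Of 40 members tested, 4 differed (10% of them, 3 positive and 1 negative), where 8.59% of the 10848 genes tested were called, 6.90% positive and 1.69% negative. A positive value means a higher fold change in the lola-null set than in the lola-F set. PGRP-LA differed by 1.81 ± 0.36 on the log2 scale (adjusted p = 0.0140), with a log2 fold change of 1.49 in lola-null embryos and −0.09 in lola-F embryos. Sp7 differed by −2.71 ± 0.62 (adjusted p = 0.0253), with −3.08 in lola-null and −0.13 in lola-F embryos. SPE differed by 2.55 ± 0.63 (adjusted p = 0.0337), with 1.14 in lola-null and −1.19 in lola-F embryos. Dif differed by 1.98 ± 0.52 (adjusted p = 0.0434), with 0.95 in lola-null and −0.75 in lola-F embryos. The log2 fold changes of SPE and Dif thus differed in sign between the embryo sets, and Dif in lola-F embryos alone was called by itself. The test is of the difference and not of the signs. Dif in lola-null embryos overlapped between the groups (edgeR adjusted p = 0.232). Before scaling it had 108 and 34 counts in null mutants 1 and 2, against 41 and 37 in null controls. The call of Dif was lost without any library other than null mutant 2 (adjusted p = 0.0574 to 0.205) and that of SPE without any other than lola-F mutant 3 and the library labelled null mutant 1 (adjusted p = 0.0613 to 0.155). Sp7 lost its call without lola-F control 1 or 2, either null mutant or null control 2 (adjusted p = 0.0529 to 0.127), and PGRP-LA without lola-F mutant 1 or 2, lola-F control 3 or either null control (adjusted p = 0.0619 to 0.163). With no filter on low counts the calls over all genes were 50.0% positive, against 80.4% in the test given here.

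The lola-O comparison was made in adults. No member was called among 38 tested in lola-O flies, neither by edgeR nor by DESeq2. An unadjusted p under 0.05 was found for 5 of them, and for 2085 of all genes tested. Over all 12906 genes tested, 0.333% were called higher and 0.225% lower, 0.558% in either direction, while DESeq2 called 2.65%, edgeR without a filter on low counts 2.63% and edgeR with the replicate block 5.18%. The log2 fold changes of the 38 members lay between −0.71 and 0.92, within 2-fold of no change, with a median of 0.02 against 0.01 over all genes tested. PGRP-SB2, PGRP-SC1a and PGRP-SC1b had too few counts.

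PGRP-SA had the smallest p and is named, like the other 4, after its value was seen. It was at 15.7 and 13.5 CPM in lola-O mutants, against 7.84 and 7.58 CPM in lola-O controls, with no overlap and a log2 fold change of 0.92 ± 0.20 (adjusted p = 0.0963). It was called with no filter on low counts (adjusted p = 0.0414) and with the replicate block (adjusted p = 0.0465). The other 4 were pirk, at 6.22 and 4.90 CPM in mutants, against 10.9 and 7.50 CPM in controls (−0.71 ± 0.27), and the proteases Hayan (0.50 ± 0.19), MP1 (0.43 ± 0.18, uncertain for its overlap with Vps24) and psh (0.42 ± 0.17), with adjusted p from 0.248 to 0.297. psh and Hayan are neighbours on the X chromosome and activate the Toll cascade after damage or microbial proteases. Fat body markers summed to 11170 and 10070 CPM in mutants, against 5720 and 4793 CPM in controls. Of these markers 2 of 11 were called higher (Lsp2 and Lsp1gamma), against 0.333% of all genes. The part of fat body in these values was not tested.

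Of 40 other pathway genes tested in lola-O adults none was called, with 6 at an unadjusted p under 0.05 and a median log2 fold change of −0.10. Over all 12906 genes tested 0.558% were called, and 2085 had an unadjusted p under 0.05. Of 31 effector peptide genes tested, BaraB, a gene of the Baramicin peptide family, was called higher, at 7.94 and 6.75 CPM in mutants, against 1.9 and 1.15 CPM in controls (2.31 ± 0.33, adjusted p = 0.0339). Both mutants were above both controls. The other 30 did not pass.

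More members were called between control groups than in any mutant comparison, and the same held over all genes. Of all genes tested 64.0% were called between lola-O and lola-F controls and 57.9% between lola-null and lola-F controls. In the mutant comparisons the shares were 7.06% (lola-F), 16.9% (lola-null) and 0.558% (lola-O). Levels were compared between genes per kb of exon, as CPM in a fit of the 7 control libraries divided by the exonic length. Among the 3 groups of controls the median member was at 15.1 CPM per kb in lola-O controls (adults), 7.43 in lola-null controls (embryos) and 15.3 in lola-F controls (embryos), and 28, 16 and 26 of the 41 members were above 10 CPM per kb in the same order. In adult controls SPE was the highest member at 138 CPM per kb, followed by PGRP-SB1 (73.8), Diap2 (54.7), cact (51.7) and GNBP3 (46.7), a sensor of fungal glucans, while the highest Imd receptor, PGRP-LC, was at 18.9. In lola-null controls Tl was highest at 128 CPM per kb, followed by cact (116), Diap2 (57.0) and MP1 (51.4), with GNBP3 at 18.6, PGRP-LC at 10.6 and the highest amidase gene, PGRP-SB1, at 0.729. In lola-F controls Rel was highest at 105 CPM per kb (65.1 to 180 in its 3 libraries), followed by PGRP-SC2 (89.0) and cact (56.0). Over the same 3 libraries PGRP-LF was at 32.3, GNBP3 at 29.1 and MP1 at 26.8 CPM per kb. The order of Rel and PGRP-SC2 rests on control 3, since without it PGRP-SC2 was at 109 and Rel at 68.1 CPM per kb. Without control 3 PGRP-LF was at 18.9, GNBP3 at 31.0 and MP1 at 25.6 CPM per kb. cact, the inhibitor of dl and Dif, was thus among the 4 highest members in all 3 groups. PGRP-SB2 had no read in any control library.

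**Figure D4:**
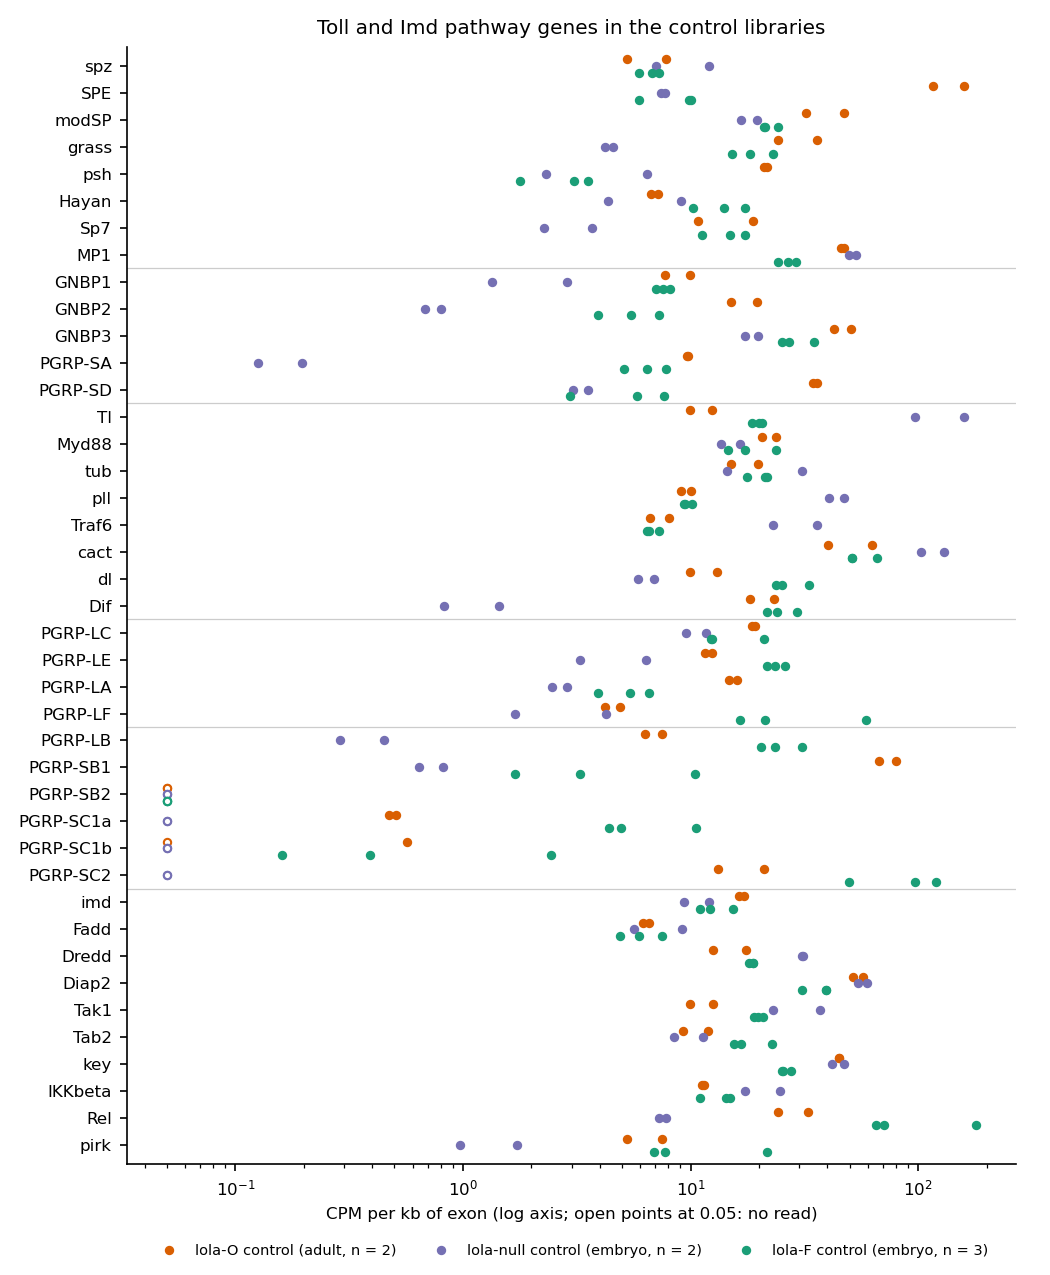
Level of each member in each control library (x axis, CPM per kb of exon on a log axis, open points mark libraries without a read), with adults of the lola-O set in orange above embryos of the lola-null set in purple and of the lola-F set in green. SPE and PGRP-SB1 were highest in adults, Tl, pll and Traf6 in lola-null controls, and Rel, PGRP-LF and PGRP-SC2 in lola-F controls.

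Adult controls of the lola-O set were first set against embryo controls of the lola-F set. Most recognition and protease genes of the Toll branch rose in adults. Genes that limit Imd signalling went both ways: PGRP-LF, PGRP-LB, PGRP-SC1a and PGRP-SC2 fell, PGRP-SB1 rose and pirk was not called. Of the NF-kappaB genes dl and Rel fell and Dif was not called. Under the length correction, which moved the median of all genes from 0.23 to −0.55, only SPE and psh of these Toll-branch genes stayed called higher, and grass, MP1 and GNBP3 were called lower. Of 39 members tested 12 were called higher and 11 lower (59.0% in all), where 39.9% of the 13238 genes tested were called higher and 24.0% lower, 64.0% in either direction. The members' share was close to that of all genes. Their median log2 fold change was 0.01, against 0.23 over all genes tested. By role, 5 of 8 cascade genes and 3 of 5 Toll-branch recognition genes were called higher, with 1 cascade gene (Hayan) and 0 recognition genes lower. No Toll transducer of 8 was called higher and 2 were called lower, and of the Imd receptors, amidases and intracellular genes 1 of 4, 1 of 4 tested and 2 of 10 were called higher and 2, 3 and 3 lower. Stage, set and library batch cannot be told apart in this comparison.

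Embryo controls of the lola-null set were set against those of the lola-F set, which carry the same label of 15 h and the same genotype. Here 10 members were called higher and 19 lower of 39 (74.4%), where 30.1% of the 13238 genes were called higher and 27.8% lower, 57.9% in either direction, and the median log2 fold change was −0.65 against 0 over all genes tested. That median was the same with PGRP-SC1a and PGRP-SC2 set at the bounds given below. All 4 tested amidase genes, 3 of 4 Imd receptors, 4 of 5 Toll-branch recognition genes and 3 of 8 cascade genes were called lower, and 0, 0, 0 and 1 of them higher. Of the 8 Toll transducers 4 were called higher and 2 lower, and of the 10 intracellular Imd genes 5 higher and 3 lower. Maternal and germline markers summed to 534 and 876 CPM in lola-null controls, against 78.1 to 87.5 CPM in lola-F controls, with 8 of 8 called higher, and midgut markers to 27.3 and 20.1 CPM, against 4765 to 6616 CPM, with 14 of 14 called lower. The label of equal age thus goes against these markers, and age, set and batch cannot be told apart. Both comparisons share the lola-F controls, and each is given with its own values.

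SPE was at 202 and 148 CPM in lola-O controls and 9.37 and 9.80 CPM in lola-null controls, against 12.5, 12.7 and 7.50 CPM in lola-F controls. It was 4.02 ± 0.27 higher in adults on the log2 scale (adjusted p = 6.49e-07), with every adult library above every embryo library, and did not pass between the embryo controls. psh, a protease that senses microbial proteases, was at 35.8 and 34.8 CPM in lola-O controls and 10.6 and 3.82 CPM in lola-null controls, against 5.04, 5.80 and 2.93 CPM in lola-F controls (2.96 ± 0.41 in adults, adjusted p = 0.000129). Adults were again above all embryos, and the embryo controls overlapped. Hayan, which lies next to psh, was at 17.4 and 16.1 CPM in lola-O controls and 21.9 and 10.4 CPM in lola-null controls, against 24.7, 33.9 and 42.0 CPM in lola-F controls. It was called lower in adults (−1.01 ± 0.34, adjusted p = 0.0244) and in lola-null controls (−1.08 ± 0.35, adjusted p = 0.0212), calls that were lost without either adult control (adjusted p = 0.0848 and 0.115) and without null control 2 (0.104).

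The 2 other cascade genes with large changes between embryo controls were Sp7 and grass, a protease upstream of SPE. Sp7 was at 5.38 and 8.79 CPM in lola-null controls, against 26.8, 35.2 and 41.3 CPM in lola-F controls (−2.27 ± 0.36, adjusted p = 0.000299). grass was at 6.38 and 5.86 CPM in lola-null controls, against 25.4, 21.3 and 31.9 CPM in lola-F controls (−2.10 ± 0.30, adjusted p = 0.000149). Both groups were clearly apart for these genes, and in adults Sp7, at 44.6 and 25.5 CPM, overlapped the lola-F controls. The ligand gene spz was not called in either comparison, at 18.4 and 12.5 CPM in lola-O controls and 16.7 and 28.5 CPM in lola-null controls, against 17.2, 16.0 and 14.1 CPM in lola-F controls.

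Among recognition genes PGRP-SD, which aids both pathways in sensing bacteria, was at 25.9 and 24.9 CPM in lola-O controls and 2.19 and 2.55 CPM in lola-null controls, against 2.12, 4.19 and 5.49 CPM in lola-F controls (2.62 ± 0.36 in adults, adjusted p = 0.000103, and 0.66 with adjusted p = 0.104 after the length correction). GNBP2 was at 29.4 and 22.6 CPM in lola-O controls and 1.20 and 1.02 CPM in lola-null controls, against 8.22, 5.91 and 10.9 CPM in lola-F controls, so that adults were above and lola-null controls below all lola-F controls (1.63 ± 0.31 with adjusted p = 0.00101 in adults, or 0.26 with adjusted p = 0.461 after the length correction, and −2.92 ± 0.42 with adjusted p = 0.000156). PGRP-SA was at 9.89 and 9.78 CPM in lola-O controls and 0.199 and 0.127 CPM in lola-null controls, against 7.95, 6.55 and 5.22 CPM in lola-F controls. It was not called in adults and was called lower in lola-null controls (adjusted p = 1.96e-05). These held 2 counts in all, against 148 in lola-F controls, a ratio 39.7-fold lower (95% exact interval 10.8 to 331, counting error only). GNBP1, the partner of PGRP-SA in sensing Lys-type peptidoglycan, was at 2.39 and 5.09 CPM in lola-null controls, against 13.5, 14.5 and 12.5 CPM in lola-F controls (−1.81 ± 0.36, adjusted p = 0.00144). Both partners were lower in lola-null controls without overlap. GNBP3 was at 77.9 and 65.1 CPM in lola-O controls, against 41.6, 53.3 and 38.6 CPM in lola-F controls (0.68 ± 0.21, adjusted p = 0.0172), a call that was lost without lola-O control 1 or lola-F control 1 (adjusted p = 0.154 and 0.0541) or with upper quartile scaling (0.163), and that turned to −0.66 (adjusted p = 0.0107) after the length correction.

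Among the Toll transducers Tl was at 64.9 and 51.7 CPM in lola-O controls and 503 and 824 CPM in lola-null controls, against 107, 104 and 97.1 CPM in lola-F controls. It was 2.69 ± 0.24 higher in lola-null controls (adjusted p = 6.61e-06) and lower in adults (−0.82 ± 0.25, adjusted p = 0.0158). The call in adults was lost without lola-O control 2 (adjusted p = 0.105) and its sign turned to 0.23 under the length correction that kept the library scaling. pll was at 78.5 and 91.7 CPM in lola-null controls, against 18.3, 19.6 and 18.1 CPM in lola-F controls (2.19 ± 0.20, adjusted p = 6.65e-06), and at 19.3 and 17.6 CPM in lola-O controls. Traf6, an adaptor of Toll and JNK signalling, was called higher in lola-null controls by 2.12 ± 0.24 (adjusted p = 2.93e-05) and cact by 1.05 ± 0.24 (adjusted p = 0.00375). The receptor, kinase and inhibitor were thus at their highest in lola-null controls, without overlap with either other group. The NF-kappaB genes took the other direction there. Dif was at 132 and 104 CPM in lola-O controls and 8.17 and 4.71 CPM in lola-null controls, against 136, 124 and 167 CPM in lola-F controls, and fell in lola-null controls (−4.49 ± 0.32, adjusted p = 1.41e-06). dl was at 83.7 and 63.7 CPM in lola-O controls and 37.7 and 44.6 CPM in lola-null controls, against 163, 153 and 214 CPM in lola-F controls (−1.26 ± 0.24 with adjusted p = 0.000894 in adults, and −2.10 ± 0.25 with adjusted p = 3.86e-05 in lola-null controls). The call of dl in adults was lost under the length correction that kept the library scaling (−0.10, adjusted p = 0.617). Both groups were below all lola-F controls for dl, and lola-null controls alone for Dif.

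Of the Imd receptors PGRP-LF was at 5.69 and 6.62 CPM in lola-O controls and 5.78 and 2.29 CPM in lola-null controls, against 28.9, 22.4 and 80.0 CPM in lola-F controls (−2.83 ± 0.59 with adjusted p = 0.00174 in adults, and −3.50 ± 0.63 with adjusted p = 0.000762 in lola-null controls). PGRP-LE, an intracellular and secreted sensor, was at 24.0 and 25.8 CPM in lola-O controls and 13.2 and 6.75 CPM in lola-null controls, against 45.1, 48.7 and 54.2 CPM in lola-F controls (−0.99 ± 0.28 with adjusted p = 0.0108, and 0.0714 without lola-O control 1, and −2.33 ± 0.31 with adjusted p = 8.65e-05). Every lola-F control was above all other controls for both receptors. Without lola-F control 3 the log2 fold change of PGRP-LF was −2.04 in adults and −2.71 in lola-null controls, both still called. PGRP-LA was at 33.6 and 30.8 CPM in lola-O controls and 5.18 and 5.98 CPM in lola-null controls, against 8.22, 13.8 and 11.4 CPM in lola-F controls (1.51 ± 0.26 with adjusted p = 0.000456, and −1.0 ± 0.29 with adjusted p = 0.0118, or 0.0526 without lola-F control 2). It was the receptor that rose in adults, a call lost after the length correction (0.54, adjusted p = 0.0599), while PGRP-LC did not pass in either comparison.

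The amidase genes, whose proteins digest peptidoglycan and limit Imd signalling, split by gene. PGRP-SB1 was at 41.9 and 50.0 CPM in lola-O controls and 0.399 and 0.509 CPM in lola-null controls, against 1.06, 2.04 and 6.498 CPM in lola-F controls (3.71 ± 0.50 with adjusted p = 0.000104 in adults, and −2.87 ± 0.79 with adjusted p = 0.00996 in lola-null controls, a call lost without either null control, at adjusted p = 0.0603 and 0.0748). PGRP-SC2 was at 15.7 and 9.88 CPM in lola-O controls and had no read in lola-null controls, against 72.6, 89.5 and 37.1 CPM in lola-F controls. It was lower in adults by −2.38 ± 0.41 (adjusted p = 0.000788) and at least 285-fold lower in lola-null controls, against a floor of 3 counts over the group (0.233 CPM). PGRP-SC1a was at 0.300 and 0.280 CPM in lola-O controls and had no read in lola-null controls, against 2.92, 2.58 and 6.22 CPM in lola-F controls (−3.72 ± 0.67 in adults, adjusted p = 0.000993, and at least 16.8-fold lower in lola-null controls). PGRP-LB was at 11.2 and 13.3 CPM in lola-O controls and 0.797 and 0.509 CPM in lola-null controls, against 36.3, 41.7 and 55.0 CPM in lola-F controls (−6.11 ± 0.39 in lola-null controls, adjusted p = 7.61e-07). Without lola-F control 3, the highest of its group for PGRP-SB1, the log2 fold change of PGRP-SB1 was 4.75 in adults and −1.84 in lola-null controls, both still called. In adults PGRP-SB1 was the amidase gene above the lola-F controls, and PGRP-SC2, PGRP-SC1a and PGRP-LB were below them.

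In the intracellular Imd pathway Rel was at 114.6 and 84.8 CPM in lola-O controls and 27.3 and 25.3 CPM in lola-null controls, against 228, 249 and 629 CPM in lola-F controls. It was lower in adults (−1.89 ± 0.43, adjusted p = 0.00305) and in lola-null controls (−3.81 ± 0.48, adjusted p = 6.27e-05), and both groups lay below every lola-F control. pirk was at 1.79 and 3.18 CPM in lola-null controls, against 12.7, 14.3 and 39.9 CPM in lola-F controls (−3.14 ± 0.58, adjusted p = 0.00092), and in adults it overlapped the lola-F controls at 13.8 and 9.69 CPM. Without lola-F control 3, the library with high Rel and pirk, the log2 fold change of Rel was −1.26 in adults and −3.18 in lola-null controls and that of pirk −2.40 in lola-null controls, and all 3 calls were kept. The kinase gene Tak1 and its partner Tab2 were called lower in adults (−0.82 ± 0.24 and −0.80 ± 0.25, adjusted p = 0.0128 and 0.0168), calls lost without lola-O control 2 (adjusted p = 0.0998 and 0.126) and turned in sign by the length correction that kept the library scaling (0.05 and 0.10). Tak1 was at 49.6 and 39.3 CPM in lola-O controls, against 74.7, 78.0 and 82.4 CPM in lola-F controls, and Tab2 at 47.5 and 36.8 CPM, against 66.3, 61.8 and 90.9 CPM. Tab2 was also called lower in lola-null controls (−0.89 ± 0.25, adjusted p = 0.0110, and 0.0508 without null control 1). The other intracellular genes called in either comparison (Dredd, Diap2, Tak1, key and IKKbeta) had log2 fold changes between 0.58 and 0.78, all higher than in lola-F controls. In lola-null controls the calls of Tak1 and IKKbeta held in 5 and 6 of 12 alternatives and were lost with DESeq2, RLE and upper quartile scaling, and Tak1 was at 0.15 (adjusted p = 0.617) without null control 2. Diap2 and Dredd kept 9 of 12 there, key kept 12 of 12, and Diap2 in adults kept 7 of 12.

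**Figure D5:**
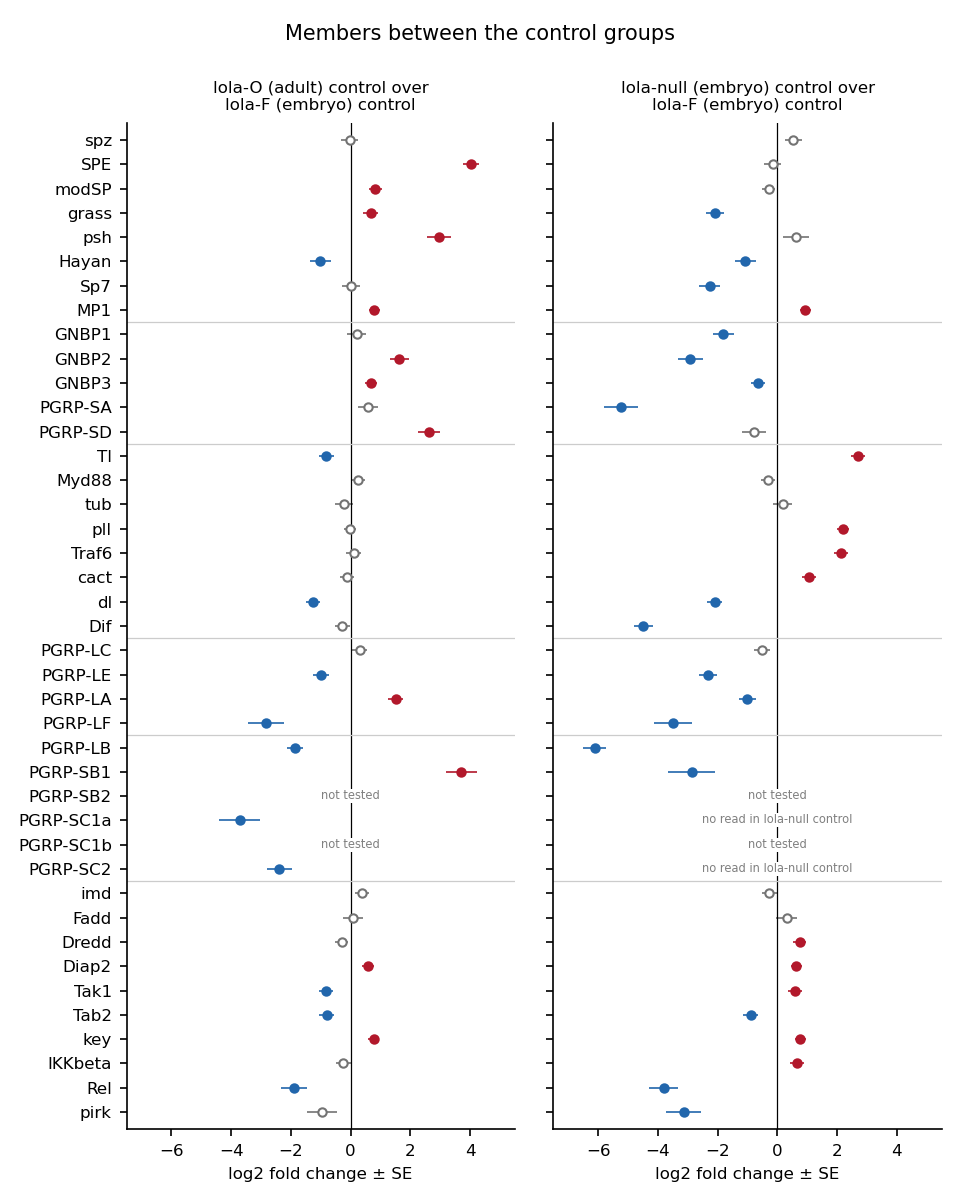
Log2 fold change of each member between control groups (x axes, bars are standard errors), adult lola-O controls over lola-F controls on the left and embryonic lola-null controls over lola-F controls on the right, with members in rows by role. Red points passed as higher and blue points as lower: SPE (4.02) and PGRP-SB1 (3.71) stood highest in adults, and Tl (2.69) highest and PGRP-LB (−6.11) lowest in lola-null controls, where PGRP-SC1a, PGRP-SC1b and PGRP-SC2 had no read.

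The effector peptide genes also differed between control groups. In lola-O controls over lola-F controls 21 of 28 tested effector genes were called higher and 0 lower. Over all genes tested 39.9% were higher and 24.0% lower there. The median log2 fold change of the effector genes was 3.02, against 0.23 over all genes tested. In lola-null controls over lola-F controls 1 was called higher and 19 lower of 28, where 30.1% of all genes were higher and 27.8% lower. Their median was −4.39 when genes without a read stand at their bounds, against 0 over all genes tested. BomBc2 was at 381 and 325 CPM in lola-O controls, against 9.54, 8.81 and 3.20 CPM in lola-F controls (5.67 ± 0.39, adjusted p = 8.61e-07), and BomS4 at 60.4 and 53.5 CPM, against 6.36, 4.41 and 3.84 CPM (3.59 ± 0.27, adjusted p = 3.7e-06). Drsl4, a Drosomycin-like gene, was at 76.7 and 61.4 CPM in lola-O controls and had no read in lola-F controls, at least 552-fold higher. In lola-null controls BomS3 was at 0.996 and 0.255 CPM, against 129, 160 and 63.8 CPM in lola-F controls (−7.68 ± 0.62, adjusted p = 3.03e-06), BomS1 at 0.399 and 0.509 CPM, against 97.0, 92.8 and 34.2 CPM (−7.27 ± 0.65, adjusted p = 5.95e-06), and BomS6 had no read, at least 127-fold lower. The groups were apart for each of these genes.

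Among 43 other pathway genes tested between controls, 9 were called higher and 13 lower in adults, and 20 higher and 12 lower in lola-null controls. For these genes and the markers below, the shares over all genes were 39.9% higher and 24.0% lower in adults. In lola-null controls they were 30.1% higher and 27.8% lower. nec, a serpin that restrains the Toll cascade, was at 218 and 146 CPM in lola-O controls, against 33.4, 44.4 and 38.3 CPM in lola-F controls (2.23 ± 0.22, adjusted p = 1.23e-05). CYLD, a deubiquitinase, was at 105 and 154.5 CPM in lola-O controls, against 32.6, 26.8 and 28.8 CPM (2.15 ± 0.23, adjusted p = 1.96e-05), and the receptor gene Toll-9 at 1.498 and 1.96 CPM, against 15.6, 18.7 and 22.5 CPM (−3.43 ± 0.38, adjusted p = 2.5e-05). In lola-null controls the ligand genes spz6 and NT1 and the prophenoloxidase gene PPO2 stood out. spz6 was at 285 and 177 CPM, against 0.795, 0.537 and 0.183 CPM in lola-F controls (9.03 ± 0.43, adjusted p = 2.84e-07). NT1 was at 95.1 and 56.0 CPM, against 0.795, 1.07 and 1.098 CPM (6.17 ± 0.34, adjusted p = 4.08e-07), and PPO2 at 194 and 214 CPM, against 10.6, 10.9 and 12.9 CPM (4.14 ± 0.21, adjusted p = 2.84e-07). None of the 6 genes overlapped between its groups. Among immune cell markers, hemocyte markers summed to 2730 and 1859 CPM in lola-O controls and 1502 and 1260 CPM in lola-null controls, against 4293, 4918 and 6280 CPM in lola-F controls. Of the 13 markers 4 were called higher and 5 lower in adults, and 3 higher and 7 lower in lola-null controls. Fat body markers summed to 7215 and 6190 CPM in lola-O controls and 2914 and 2357 CPM in lola-null controls, against 2887, 2589 and 4247 CPM in lola-F controls, with 8 of 10 tested called higher and 2 lower in adults, and 0 higher and 3 lower in lola-null controls. Among the hemocyte markers PPO2, given above, was higher in lola-null controls, while Hml, a marker of mature hemocytes, was at 0.797 and 0.637 CPM in lola-null controls, against 112, 107 and 148 CPM in lola-F controls. The part of cell numbers in the levels of the pathway genes was not tested.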

How the data were processed

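STAR 2.5.0c, HTSeq 0.6.1p1 and the build BDGP6 are named in the submitters' processing notes. The deposited counts are whole numbers without normalization. No source used here gives the annotation release or the strand setting. Symbols, positions and exonic lengths came from BDGP6.54, in which 17252 of 17558 identifiers were found and 306 were not. lola was read under a former identifier from general knowledge. Summary rows (reads in no gene, several genes or several places) stayed out of library sizes and tests. Reads at several places made up 3.17% to 65.2% of reads in lola-F libraries, 15.8% to 40.4% in lola-null and 3.30% to 4.78% in lola-O libraries. The lowest library total, 3326811 counts, limits low genes most, and floors cover counting error only.

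Counts were analysed in R 4.3.3 with edgeR 4.0.16 (filterByExpr, TMM, quasi-likelihood F test, Benjamini-Hochberg adjustment over all genes tested, calls under 0.05). Each mutant was set against the controls of its set, control groups were compared in 1 fit of the 7 control libraries, and the embryo effects by an interaction over 10 libraries. Standard errors were obtained from the log2 fold change and the F value. CPM values use the scaled library size of the fit. Overlap between groups only describes the genes named, since its share over all genes was not counted. The tests were tested on simulated data. A 2-fold change passed in 41% of changed genes in the lola-F test, 10% in lola-null and 39% in lola-O. It passed in 10% between adult and lola-F controls, 24% between embryo controls and 0% in the interaction, where 22% passed at 4-fold. A member that did not pass may thus have changed. Only a small part of the genes was changed in the simulation, none of them at low levels. Where many genes change, as between controls (64.0% and 57.9% of genes called), the adjusted threshold is less strict. The simulated shares thus do not give the share of changes missed there. Alternatives were DESeq2 1.42.0, RLE and upper quartile scaling, no filter on low counts, a replicate block, removal of a loess trend on exonic length, and leaving out each library. Where a group held 2 libraries, leaving 1 out left 1, and the spread then came from the other groups alone. Calls kept, gained or lost in such fits are a description.

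Groups and replicate numbers follow the labels, and nothing in them says that replicates came from separate crosses, so the spread behind each p-value is that of these samples alone and may be technical. For replicate pairs chi-square over its degrees of freedom was above sampling noise, at 3.18 for lola-F mutants 1 and 2 and 15.8 to 89.9 for all other pairs. By this measure lola-F mutants 1 and 2 were far closer to each other than any other pair, and why was not tested. The members, roles and lists were chosen with earlier results of these data known. Full values are given for members called in a mutant comparison or the interaction, for up to 3 called members per role with the largest change between controls, for the highest member per role, and for up to 3 called genes of each other list. A further 9 listed genes were not matched to an identifier and are not analysed here.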

Additional observations from a re-analysis of the deposited data

Results flagged for a closer look

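The difference between mutants and controls was not the same in the lola-null and lola-F sets for 4 of 40 members (10%), by the interaction test of edgeR, where 8.59% of all genes were called. Age, set and genotype cannot be told apart in it. The difference, lola-null effect minus lola-F effect on the log2 scale, was 2.55 for SPE, −2.71 for Sp7, 1.98 for Dif and 1.81 for PGRP-LA. Each of these calls depended on several single libraries, and leaving out 1 library at a time gave 0 to 6 called members.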

How the results depend on the processing

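Leaving out 1 library gave 0 members called higher and 0 to 2 lower in lola-F embryos, 0 to 3 higher and 0 to 6 lower in lola-null embryos, 0 and 0 in lola-O adults, 8 to 13 higher and 7 to 12 lower in adult over lola-F controls, 6 to 10 higher and 16 to 20 lower in lola-null over lola-F controls, and 0 to 6 in the interaction. Over all genes the share called ran from 5.76% to 33.2% in lola-null embryos (266 higher and 280 lower without control 2, 1188 and 1924 without mutant 1, and 1559 and 1240 without mutant 2, against 689 and 881) and from 0.0376% to 1.72% in lola-O adults (4 higher and 1 lower without control 1, 80 and 147 without mutant 1, and 156 and 71 without mutant 2, against 43 and 29). Without lola-F mutant 1, mutant 2, control 1 or control 2 no gene of any kind was called in that set by edgeR (2595, 2874, 2277 and 2551 had an unadjusted p under 0.05), while with DESeq2 and no library left out 815 genes were higher and 1117 lower, against 339 and 380 in edgeR. DESeq2 called 163 genes higher and 179 lower in lola-O adults (edgeR 43 and 29, or 271 and 398 with the replicate block and 212 and 203 with no filter) and 945 positive and 335 negative in the interaction (edgeR 749 and 183). In lola-F embryos the call of Dif became 0 calls with RLE scaling, no filter, the replicate block or the length trend removed, 2 calls in DESeq2 (Dif and SPE), and with upper quartile scaling 1 member (PGRP-LE) was called higher. In lola-null embryos 0 members were called higher with upper quartile scaling or the replicate block and 2 (Dif and PGRP-LA) with the length trend removed. In lola-O adults PGRP-SA made 1 call with no filter or the block. The interaction called 2 members with upper quartile scaling, 2 with no filter and 1 with the block.

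Removing the length trend moved the adult over lola-F control calls to 3 higher and 27 lower, with the median of all genes at −0.55 against 0.23 (38.5% of calls higher, against 62.4%), and the signs of Diap2 (−0.37), MP1 (−0.56), grass (−0.78), GNBP3 (−0.66), key (−0.66) and modSP (−0.029) turned. A form that kept the scaling of the libraries, added after seeing the data, gave 16 higher and 6 lower (median 0.59), turned Tl (0.23), Tak1 (0.052) and Tab2 (0.10), and gave 0 lower members in lola-F and 2 higher in lola-null embryos. dl in lola-F embryos turned under both forms (0.054 and 0.14). Of all calls, 65.5% were higher in lola-F embryos without the length trend and 79.1% with scaling kept (against 47.1%), 61.1% in lola-null embryos with scaling kept (against 43.9%) and 62.4% in the interaction without the length trend (against 80.4%). Upper quartile scaling shifted the median of all genes by 0.15 in lola-F embryos (68.2% of calls higher, against 47.1%), by −0.29 between adult and lola-F controls (51.8%) and by −0.31 in the interaction (59.7%, against 80.4%).

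In the lola-F set same-numbered libraries did not deviate together (Pearson r across genes −0.036, −0.15 and −0.111). In the lola-null and lola-O sets r was −0.253 and 0.0936. With 2 libraries per group crossed numbers give the same r with its sign turned, so these values cannot decide on pairing. In lola-O adults the replicate block called 271 genes higher and 398 lower, against 43 and 29. The labels name no pairs, and the numbers were not read as pairs. Crossed numbers in the lola-null set, added after seeing the data, gave 1 higher and 4 lower. Of 909 values of 74 results under these settings 777 kept direction and side of the threshold, 112 lost a call, 9 gained one and 11 changed sign. A gene that stayed uncalled counts as kept. Most kept values came from the control comparisons (241 in adults and 320 in lola-null controls). In the interaction 33 were kept and 35 lost their call, and Dif in lola-F embryos was called in 2 of 13 settings.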
